A study of Homo sapiens with 18 samples.

Results

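Peaks of the linker histone H1.5 in xChIP-seq of HL-60/S4 cells cover little of human chromosomes 10 and 16. The question here is whether that shortfall lies along the whole of each chromosome or in a few regions. The members were all 100-kb windows of these chromosomes in hg19 with at least 50% known sequence. There were 1317 windows on chromosome 10 and 789 on chromosome 16, which makes 2106 of the 26901 autosomal windows. Both chromosomes were selected on their measured xChIP H1.5 coverage, so their low xChIP H1.5 level is a description of that selection and is given without a test. The values below describe how the shortfall was distributed, and how the other 3 peak lists behaved on the same windows.

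HL-60/S4 is an established human myeloid leukemia cell line, and only undifferentiated, formaldehyde-fixed and permeabilized cells were used. In xChIP the fixed chromatin was sonicated before an antibody to H1.2 or to H1.5 was added, whereas in xxChIP the antibody was bound inside the permeabilized cells and fixed there a second time before sonication. Both protocols were run with both antibodies, which gives 4 lists, each named by its protocol and isotype, and in each the authors merged the peaks of 3 replicates. The 6 Input samples were not analysed here. A list gives the position of each peak without a score or a read number, so the depth is unknown and no spread between replicates could be computed. The spread given instead is that over the other 20 autosomes, which are not replicates of a condition.

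Linker histones bind the nucleosome where DNA enters and leaves it, and they favour the folding of the nucleosome chain. Human somatic cells hold several H1 isotypes, of which H1.2 and H1.5 are among the common ones. Chromosome 16 is rich in genes and segmental duplications and has a large block of satellite DNA next to its centromere, while chromosome 10 is closer to an average autosome. In these windows the mean GC content was 44.8% on chromosome 16, 41.6% on chromosome 10 and 40.8% on the other autosomes. A window overlapped on average 1.65 protein-coding genes on chromosome 16, 1.07 on chromosome 10 and 1.199 elsewhere. Each window was therefore set against the mean of windows of the other 20 autosomes with the same GC content, in steps of 1 percentage point, and the same class of gene number. The coverage ratio is the summed coverage of a set of windows divided by the summed coverage of its matched windows.

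The 3 stretches of sequence printed here all come from xChIP H1.5 peaks and show the DNA at the longest peaks and at a peak of the poorest segment. The first and second are the central 200 bases of the longest xChIP H1.5 peak of each chromosome, and the last is the centre of the xChIP H1.5 peak nearest the middle of the segment with the lowest ratio. All are read from the plus strand of hg19, 5′ to 3′, with CG dinucleotides in capitals.
chr10:39115914-39116113: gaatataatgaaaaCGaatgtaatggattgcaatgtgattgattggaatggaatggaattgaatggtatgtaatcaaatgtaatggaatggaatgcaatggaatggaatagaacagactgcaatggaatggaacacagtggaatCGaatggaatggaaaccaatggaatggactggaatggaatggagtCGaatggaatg
chr16:35253841-35254040: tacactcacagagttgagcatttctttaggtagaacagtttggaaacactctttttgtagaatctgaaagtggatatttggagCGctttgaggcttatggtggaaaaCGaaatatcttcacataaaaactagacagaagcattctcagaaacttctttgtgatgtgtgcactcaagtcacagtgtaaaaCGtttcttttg
chr16:87459752-87459951: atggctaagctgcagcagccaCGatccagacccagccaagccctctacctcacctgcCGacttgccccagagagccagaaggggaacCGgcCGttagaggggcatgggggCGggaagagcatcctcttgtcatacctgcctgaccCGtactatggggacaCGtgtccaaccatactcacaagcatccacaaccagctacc

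The first 2 stretches each had a GC content of 37% and 3 CG dinucleotides, and the last had a GC content of 60% and 7. The chromosome 10 stretch held GGAAT, read on both strands, 14 times. In the whole peak GGAAT occurred 66.6 times per kb, against 2.29 times per kb over chromosome 10, and 0.103% of the 200-base stretches of that chromosome held it at least as often. GGAAT is the unit of a class of human satellite DNA found beside centromeres. The chromosome 16 stretches held no GGAAT, and 31.5% of the 200-base stretches of that chromosome held it at least once. The peak of the first stretch ran for 77763 bp (chr10:39077133-39154895) and that of the second for 63570 bp (chr16:35222156-35285725). Neither overlapped a protein-coding gene, and all 4 lists covered both of them, xChIP H1.2 to 99.9% in each. The last peak measured 2665 bp (chr16:87458520-87461184) and lay in ZCCHC14, which encodes a zinc finger protein. xChIP H1.2 covered 8.37% of it, and neither xxChIP list covered any of its bases.

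Over all windows, xChIP H1.5 peaks covered 11.0% of chromosome 10 and 7.67% of chromosome 16, where the matched windows had 17.2% and 18.04%. The ratio was 0.639 on chromosome 10 and 0.425 on chromosome 16, and 0.557 over both. The other 20 autosomes had a mean ratio of 0.981 ± 0.186 (SD, n = 20). Chromosome 16 had the lowest ratio of the 22 autosomes. Chromosome 10 had the second-lowest coverage, but once windows were matched it came after chromosome 17, whose ratio was 0.587. Chromosome 19 followed with 0.661, and chromosome 12 had the highest, 1.205. Chromosome 16 thus lay outside the range of the other autosomes, whereas chromosome 10 lay inside it.

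The xChIP H1.2 list was also low on both chromosomes, by less. Its coverage was 22.8% on chromosome 10 against 28.7% in matched windows, a ratio of 0.792. On chromosome 16 it was 27.0% against 37.2%, a ratio of 0.726, the lowest of the 22, with chromosomes 17 (0.731) and 22 (0.740) beside it. The mean over the other autosomes was 0.985 ± 0.171 (SD, n = 20). In the xxChIP lists chromosome 10 was close to its matched windows, with ratios of 0.995 for H1.2 and 0.912 for H1.5. Chromosome 16 had 0.832 and 0.778. These lay inside the ranges of the other autosomes, which ran from 0.690 (chromosome 8) to 1.69 (chromosome 19) for xxChIP H1.2 and from 0.682 (chromosome 21) to 1.80 (chromosome 19) for xxChIP H1.5.

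**Figure D1:**
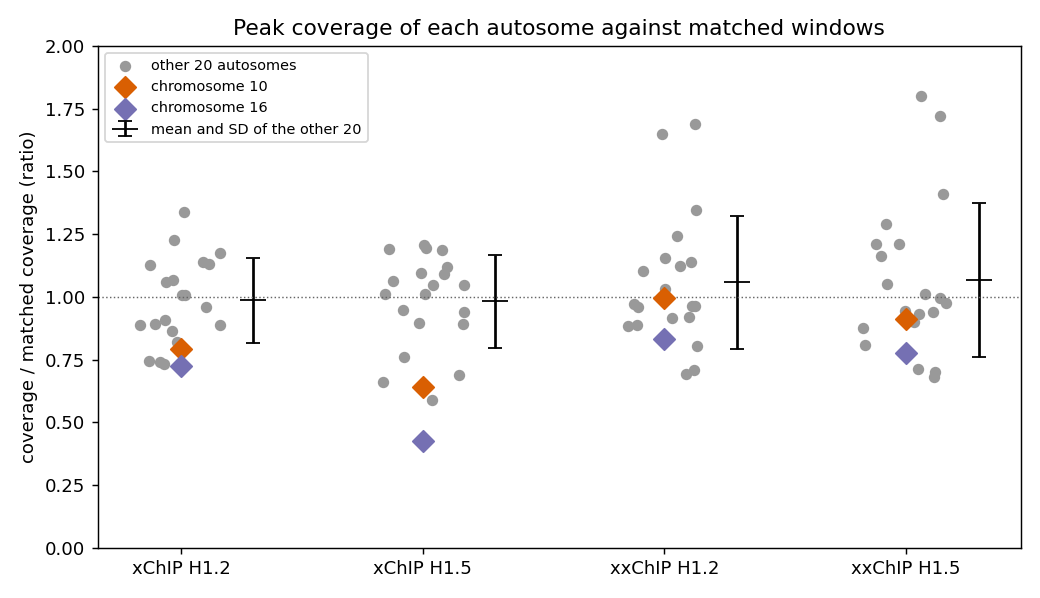
Coverage ratio (coverage of a chromosome's windows divided by that of windows matched on GC and gene number, no unit) of each autosome for the 4 peak lists. Grey points are the other 20 autosomes, black bars their mean and SD, and diamonds chromosomes 10 and 16; in xChIP H1.5 a diamond, chromosome 16 at 0.425, lies well below every grey point.

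The shortfall in xChIP H1.5 was spread over most windows. On chromosome 10, 1084 of 1317 windows (82.3%) lay below their matched mean, and on chromosome 16, 751 of 789 (95.2%), against 61.4% of all autosomal windows. A window was called low at or below 0.5 times its matched mean. There were 570 low windows (43.3%) on chromosome 10 and 527 (66.8%) on chromosome 16, against 23.3% of all autosomal windows and 11.8 to 43.2% on the other autosomes. Windows at or above 2 times the matched mean numbered 8 on chromosome 10 and 2 on chromosome 16, against 6.81% of all windows. Few windows were empty. No xChIP H1.5 base fell in 15 windows of chromosome 10 (1.14%) and 23 of chromosome 16 (2.92%), against 0.569% of all windows.

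The whole distribution of window coverage was shifted, including its upper part. The median window had 9.67% on chromosome 10 where matched windows had 14.7%, and 6.74% on chromosome 16 where matched windows had 15.0%. At the 95th percentile the values were 23.7% against 39.4% on chromosome 10 and 16.8% against 41.9% on chromosome 16. Between the 5th and the 95th percentile, the ratio between the distributions stayed between 0.506 and 0.662 on chromosome 10 and between 0.315 and 0.449 on chromosome 16. At each of these percentiles the windows of both chromosomes were thus below their matched windows.

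**Figure D2:**
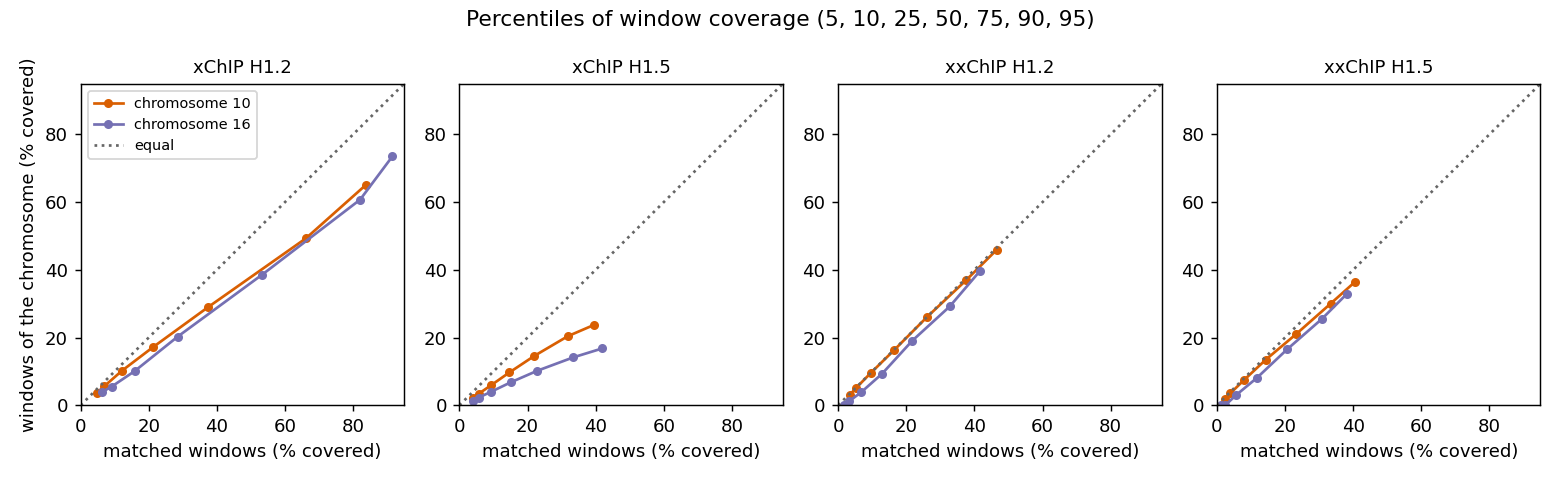
Percentiles (5, 10, 25, 50, 75, 90 and 95) of the coverage of 100-kb windows, in percent of known bases, on chromosomes 10 and 16 (y) against matched windows of the other autosomes (x), 1 panel per list. In xChIP H1.5 both lines lie below the dotted line of equality throughout, chromosome 16 lower than chromosome 10; in the xxChIP lists chromosome 10 lies near it and chromosome 16 below it, with medians of 9.32% against 12.9% for H1.2 and 8.01% against 11.7% for H1.5.

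Along the chromosomes, every 5-Mb segment with at least 2 Mb of known sequence in windows was below its matched value. All 27 segments of chromosome 10 had xChIP H1.5 ratios below 1, from 0.484 to 0.958 with a median of 0.621. All 16 segments of chromosome 16 were below 1, from 0.299 to 0.531 with a median of 0.412, and 14 of them were at or below 0.5. Over all autosomes 56.9% of segments were below 1, and on the other autosomes the 5th and 95th percentiles were 0.617 and 1.46. Every segment was below 1 on chromosomes 2 (48 segments), 17 (16), 18 (15) and 19 (12) as well. The segments of chromosome 16 also differed little from each other. The coefficient of variation of their ratios was 14.2%, against 16.6% on chromosome 10 and a median of 18.3% on the other autosomes, whose values ran from 13.0 to 38.5%. The short and the long arm did not stand apart, with ratios of 0.664 and 0.629 on chromosome 10 and 0.447 and 0.407 on chromosome 16.

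The other lists moved more from segment to segment on chromosome 16. xChIP H1.2 ratios ran from 0.415 to 0.980 there, with a coefficient of variation of 27.6%, and from 0.531 to 1.18 on chromosome 10. xxChIP H1.2 ratios ran from 0.314 to 1.35 on chromosome 16 and xxChIP H1.5 ratios from 0.246 to 1.35, with coefficients of variation of 31.2% and 35.2%. They were below 1 in 14 and 15 of the 16 segments. Chromosome 16 was thus low in xChIP H1.5 to a like degree along its length, whereas the xxChIP lists ranged from above the matched level in the segment from 30 to 35 Mb, on the short-arm side of the centromere, to their lowest values in the first 5 Mb and from 85 to 90 Mb. On the long-arm side of the centromere, from 45 to 50 Mb, they had 0.833 and 0.710.

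**Figure D3:**
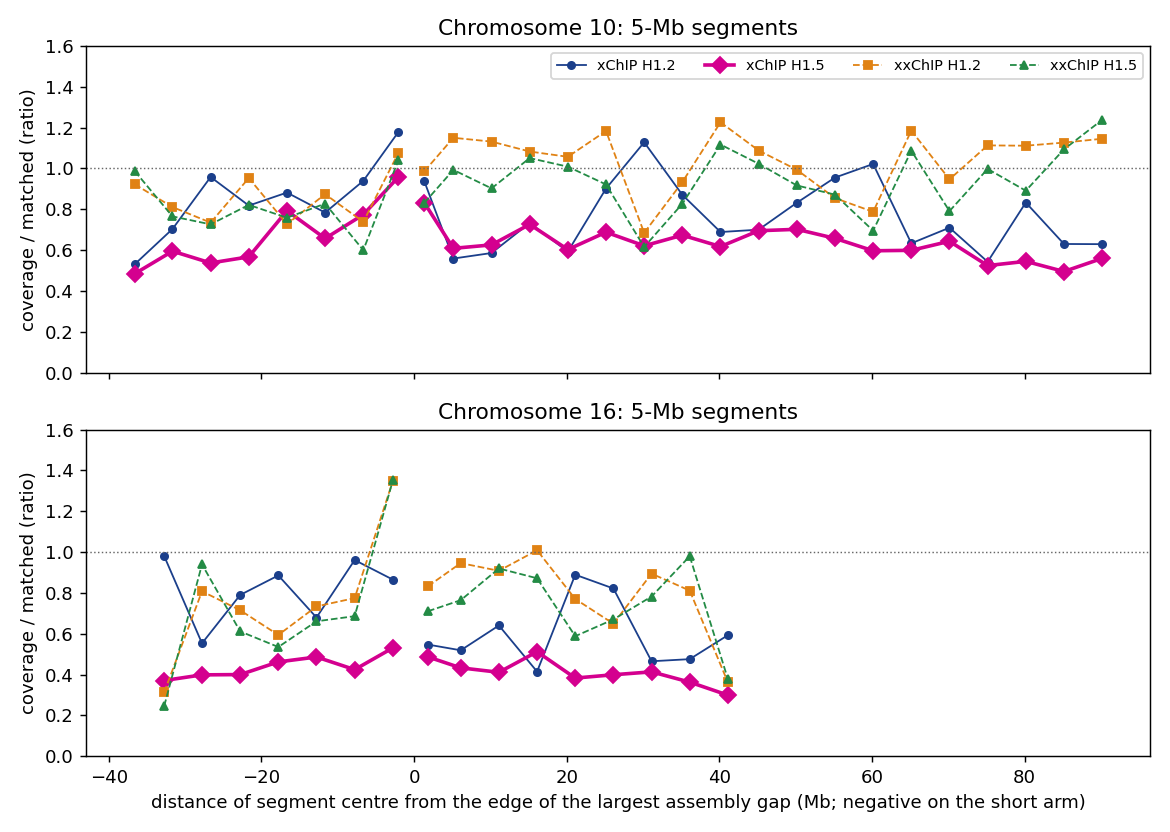
Coverage ratio of each 5-Mb segment (no unit) against the distance in Mb of its centre from the edge of the largest assembly gap, which holds the centromere, with the short arm at negative distances. Chromosome 10 is above and chromosome 16 below; the thick line is xChIP H1.5, which stays below the dotted line at 1 in all 27 and 16 segments, while the 2 xxChIP lines reach 1.35 beside the gap of chromosome 16 and fall to 0.246 at its outer end.

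The segments with the lowest xChIP H1.5 ratio lay towards the chromosome ends. On chromosome 10 they were the first 5 Mb (0.484), which hold the RNA-editing gene ADARB2 and the transcription factor gene KLF6, the segment from 125 to 130 Mb (0.495), with the corepressor gene CTBP2, and that from 115 to 120 Mb (0.524). On chromosome 16 they were the segment from 85 to 90 Mb (0.299), where 61 protein-coding genes include IRF8, a transcription factor gene of myeloid cells, and FOXF1, then the segment from 80 to 85 Mb (0.363) and the first 5 Mb (0.371), which hold 193 protein-coding genes, the alpha globin genes among them. The outer segments of chromosome 16 had GC contents of 54.2% and 53.0% and were low in the xxChIP lists too. xxChIP H1.2 had ratios of 0.314 in the first 5 Mb and 0.362 from 85 to 90 Mb. In xChIP H1.2 the same segments had 0.980 and 0.593. In the first 5 Mb of chromosome 16, xChIP H1.2 peaks thus covered nearly the matched share, and the peaks of the other lists less than theirs. Windows within 2 Mb of a chromosome end had xChIP H1.5 ratios of 0.654 on chromosome 10 and 0.321 on chromosome 16. Those away from gaps and ends had 0.624 and 0.420, so only on chromosome 16 were the outermost windows lower.

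The highest ratios of chromosome 10 were on both sides of the centromere. The segment from 35 to 40 Mb, with the transcription factor gene CREM and the polarity gene PARD3, had 0.958, and that from 40 to 45 Mb, with the chemokine gene CXCL12, had 0.832. The segment from 20 to 25 Mb, with the Polycomb gene BMI1, had 0.793. On chromosome 16 the highest were the segments from 30 to 35 Mb (0.531), from 60 to 65 Mb (0.512), whose only protein-coding genes are the cadherins CDH8 and CDH11, and from 45 to 50 Mb (0.487). Windows within 2 Mb of a gap of 1 Mb or more had a ratio of 1.09 on chromosome 10 (40 windows) and 0.639 on chromosome 16 (38 windows). The other autosomes had 1.49 in such windows. Without the windows at or above 2 times their matched mean, 4 on chromosome 10 and 2 on chromosome 16, the ratios were 0.776 and 0.487. The median window had 0.730 and 0.518 times its matched mean. The matched means kept their own high windows, so both kinds of value are lowered by construction. They cannot tell how far the windows beside the gap shared the shortfall. Windows away from gaps and ends had ratios of 0.624 and 0.420. Of the 40 windows of chromosome 10 near the gap 40.0% lay above their matched mean, against 16.99% elsewhere, and on chromosome 16 the shares were 18.4% and 4.13%. Over all autosomes 61.4% of windows lay below their matched mean, so the share near the gap of chromosome 10 was close to the background. The chromosome 16 windows from 35 to 40 Mb, 3 in number and too few to count as a segment, had a ratio of 1.47.

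The 10 windows at or above 2 times their matched mean lay partly beside the centromeric gap and partly elsewhere. On chromosome 10, 4 of the 8 lay within 0.305 Mb of the gap and overlapped no protein-coding gene, and both windows of chromosome 16 lay within 0.0642 Mb of it, also without such a gene. The window of chromosome 10 that starts at 39100001 was covered to 99.9% by xChIP H1.5, and that of chromosome 16 from 35200001 to 74.1%. Of the 1317 windows of chromosome 10, 401 overlapped no protein-coding gene, so most overlapped one. The other 4 windows of high ratio lay on the long arm of chromosome 10. They overlapped CTNNA3, which encodes an alpha catenin (34.3%), PLA2G12B and P4HA1, a phospholipase-like and a collagen prolyl hydroxylase gene (42.3%), HECTD2, a ubiquitin ligase gene (33.4%), and CYP2C8, a cytochrome P450 gene (34.0%).

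Runs of consecutive windows below the matched mean were longer on chromosome 16 than on any other autosome, where the longest were 56 windows on chromosome 17 and 42 on chromosome 2. The longest on chromosome 16 held 78 windows (chr16:1300001-9100000, 7.8 Mb) with 153 protein-coding genes, at 6.60% xChIP H1.5 and 34.97% xChIP H1.2. The next held 71 windows (chr16:83200001-90300000) with 84 genes, starting in CDH13, at 5.68% and 27.1%. On chromosome 10 the longest runs were within the lengths seen elsewhere. They held 37 windows (chr10:117600001-121300000), with the pancreatic lipase gene PNLIP and the homeobox genes VAX1 and EMX2, and 29 windows (chr10:113900001-116800000), with the Wnt effector gene TCF7L2. Their xChIP H1.5 coverage was 8.57% and 7.14%.

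The longest stretch of known sequence without an xChIP H1.5 peak on chromosome 16 measured 522856 bp (chr16:46500358-47023213), and it was the longest on any autosome, with 450557 bp on chromosome 8 coming next. It lay just beyond the centromeric gap and held SHCBP1, the retromer gene VPS35, the replication origin gene ORC6, MYLK3, GPT2 and DNAJA2. The xxChIP lists were almost empty there as well, with 0.0157% for H1.2 and 0.768% for H1.5, and xChIP H1.2 covered 5.82%. The stretch was thus poor in all 4 lists. On chromosome 10 the longest such stretch measured 190658 bp (chr10:68682277-68872934) in CTNNA3 and LRRTM3, within the lengths seen on the other autosomes. There xxChIP H1.2 covered 32.7% and xChIP H1.2 1.91%.

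The shortfall was deepest in the windows of highest GC content. Autosomal windows were divided into 5 classes at GC contents of 36.6, 38.8, 41.2 and 44.9%. On chromosome 10 the xChIP H1.5 ratio was 0.718, 0.720 and 0.704 in the 3 classes of lowest GC, 0.599 in the next and 0.515 in the highest. On chromosome 16 it was 0.707 in the lowest class (43 windows), then 0.435, 0.515 and 0.439, and 0.362 in the highest class (342 windows). That lowest class held both chromosome 16 windows at or above 2 times their matched mean, with GC contents of 36.4% and 36.6%. Its ratio thus rests in part on these windows, and the middle classes did not follow the order of GC. The order by gene number was similar. Windows without a protein-coding gene had ratios of 0.682 on chromosome 10 and 0.510 on chromosome 16, those with 3 to 4 genes 0.520 and 0.357, and the 13 windows of chromosome 16 with 9 or more genes 0.284. The only window of chromosome 10 with 9 or more genes had 1.35. The shortfall was thus present in every GC class of both chromosomes and, apart from that window, the ratio was lower where genes were dense.

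The other lists changed with GC in different ways on chromosome 16. The xChIP H1.2 ratio there was lowest in the middle class, 0.501, and highest in the class of highest GC, 0.838. The xxChIP H1.2 ratio was between 0.902 and 1.09 in the first 4 classes and 0.523 in the highest, and that of xxChIP H1.5 fell to 0.462 in the highest. On chromosome 10 the xChIP H1.2 ratio stayed between 0.723 and 0.817, and the xxChIP H1.2 ratio between 0.900 and 1.17.

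**Figure D4:**
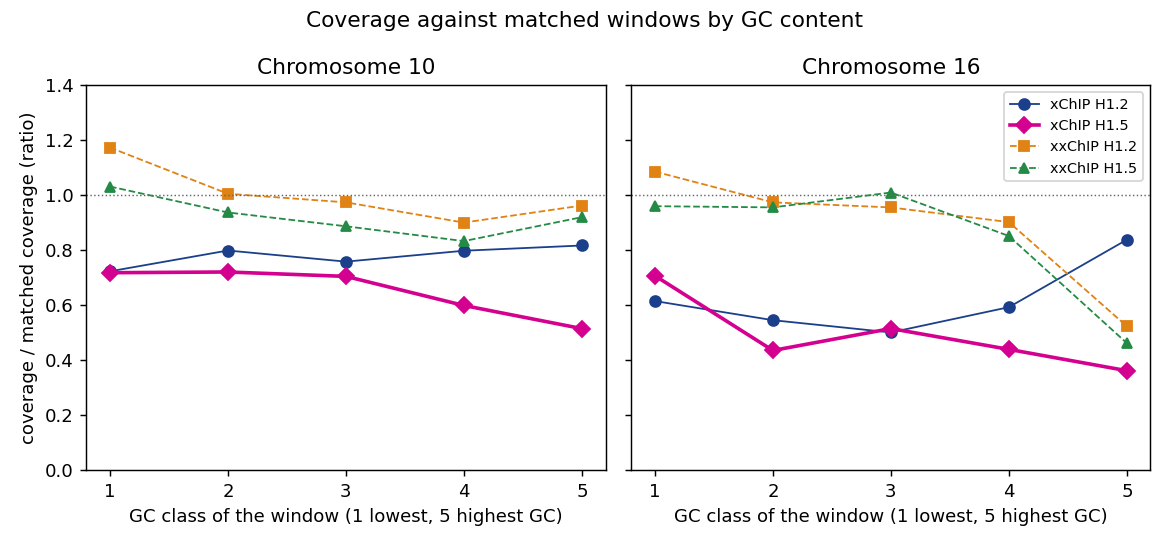
Coverage ratio (no unit) of the 4 lists in windows of 5 GC classes, from lowest to highest GC, on chromosome 10 (left) and chromosome 16 (right). The thick xChIP H1.5 line lies below 1 in every class and is lowest in the class of highest GC, 0.515 and 0.362; on chromosome 16 both xxChIP lines drop in that class, and the xChIP H1.2 line rises to 0.838.

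In the other lists the counts of low windows differed less from the background. Low windows of xChIP H1.2 numbered 442 on chromosome 10 (33.6%) and 317 on chromosome 16 (40.2%), against 24.9% of all autosomal windows, and high ones 46 and 7, against 8.16%. Low windows of xxChIP H1.2 were 20.5% on chromosome 10, near the 21.6% of all windows, and 40.3% on chromosome 16. Those of xxChIP H1.5 were 26.0%, near the 24.5% of all windows, and 44.6%. High windows of xxChIP H1.2 numbered 77 and 28, against 7.21% of all windows, and those of xxChIP H1.5 55 and 26, against 7.89%. Windows without any xxChIP base made up a larger share of chromosome 16 than of any other autosome. It had 64 for H1.2 (8.11%), against 1.13% of all windows, and 80 for H1.5 (10.1%), against 1.74%. Of the 64, 18 lay in the first 5 Mb, 14 from 85 Mb to the end, 4 from 45 to 50 Mb and 28 elsewhere. Of the 80, 45 lay elsewhere.

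Window coverage by xChIP H1.2 and xChIP H1.5 was loosely related on both chromosomes. Across windows, which share a library and are not independent, Pearson's r was 0.302 on chromosome 10 (n = 1317 windows) and 0.140 on chromosome 16 (n = 789 windows), the lowest values of the 22 autosomes. The other autosomes had values from 0.307 to 0.678 with a median of 0.544. With xxChIP H1.2, the xChIP H1.5 coverage had r = 0.136 on chromosome 16, above the range of -0.29 to 0.088 on the other autosomes, and 0.033 on chromosome 10.

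Both the number and the length of xChIP H1.5 peaks were reduced. Chromosome 10 had 40.6 peaks per Mb where matched windows had 50.8, a ratio of 0.801, and chromosome 16 had 32.4 where matched windows had 51.3, a ratio of 0.631. The other autosomes had a mean number ratio of 0.999 ± 0.086 (SD, n = 20) and a lowest value of 0.818, on chromosome 17. The mean peak length was 2690 bp against 3397 bp on chromosome 10, a ratio of 0.797, and 2362 bp against 3513 bp on chromosome 16, a ratio of 0.673. The length ratio was 0.714 on chromosome 19 and 0.717 on chromosome 17, so short peaks were found elsewhere as well, while the number ratio of both chromosomes was below that of each of the other 20. In xChIP H1.2 only the length was low. The number ratios were 1.02 on chromosome 10 and 1.03 on chromosome 16, with length ratios of 0.778 and 0.701.

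**Figure D5:**
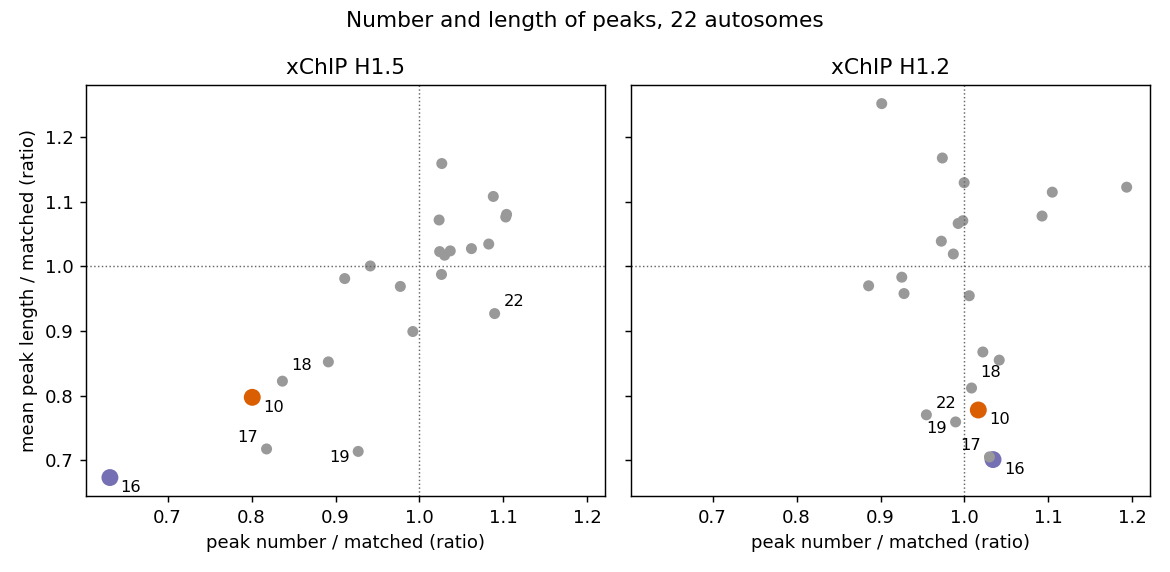
Mean peak length ratio (y) against peak number ratio (x), both relative to matched windows and without unit, for the 22 autosomes in xChIP H1.5 (left) and xChIP H1.2 (right), with numbers beside 6 of them. In xChIP H1.5, chromosome 16 lies at 0.631 and 0.673 and chromosome 10 at 0.801 and 0.797, low on both axes; in xChIP H1.2 both lie near 1 on the x axis and below 1 on the y axis.

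Long peaks were few and made up the smaller part of the xChIP H1.5 shortfall. Of the 5334 xChIP H1.5 peaks of chromosome 10, 82 (1.54%) were 10 kb or longer, and of the 2560 of chromosome 16, 17 (0.664%), against 1.37 to 5.69% on the other autosomes. Only 11 and 2 reached 20 kb. The bases in peaks of 20 kb or more were 0.153 times the matched amount on chromosome 10 and 0.0494 times on chromosome 16, against 0.0935 on chromosome 17, 0.155 on chromosome 19 and up to 2.56 elsewhere, so chromosome 10 lay inside the range of the other autosomes. Such peaks accounted for 26.7% of the bases missing relative to matched windows on chromosome 10 and for 22.4% on chromosome 16. The bases in shorter peaks were 0.701 and 0.484 times the matched amount, against 0.990 ± 0.143 (SD, n = 20) on the other autosomes and 0.675 on chromosome 17, their lowest. Most of the missing xChIP H1.5 bases were therefore in shorter peaks. In matched windows, however, xChIP H1.5 peaks of 20 kb or more covered only 1.96% and 2.45%, against 15.3% and 15.6% for shorter ones. The part of long peaks could thus only be small, although they fell further below the matched amount than shorter ones. In xChIP H1.2 long peaks held 91.9% and 95.4% of the missing bases. Such peaks covered 10.9% and 17.7% of matched windows, so the 2 isotypes are not on an equal footing here. Shorter peaks there were at 0.973 and 0.976 times the matched amount, and peaks of 20 kb or more at 0.497 and 0.449, against 0.505 on chromosome 17, the lowest of the others. The typical xChIP H1.5 peak was also somewhat shorter, with a median of 1951 bp on chromosome 10 and 1798 bp on chromosome 16 where the other autosomes had 1902 to 2211 bp. The median distance between neighbouring peaks was 14586 bp and 19845 bp, against 9441 to 14110 bp.

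A smaller share of xChIP H1.2 peaks than on the other autosomes overlapped xChIP H1.5. With fewer and shorter xChIP H1.5 peaks, less overlap follows at least in part from the coverage on which both chromosomes were selected. The values of this paragraph describe that selection further and were not matched. On chromosome 16, 25.5% of the 4514 peaks of xChIP H1.2 shared at least 1 bp with a peak of xChIP H1.5, and on chromosome 10, 31.9% of 7045. The other autosomes had 32.7 to 47.9%. In the other direction 52.2% of the 2560 xChIP H1.5 peaks of chromosome 16 and 48.8% of the 5334 of chromosome 10 overlapped an xChIP H1.2 peak, within the 46.2 to 61.9% of the others. xChIP H1.5 covered 12.7% of the bases inside xChIP H1.2 peaks and 5.84% of those outside on chromosome 16, below the 18.4 to 40.9% and 8.10 to 12.2% of the other autosomes. On chromosome 10 it covered 22.3% inside, within the range of the others but below their median of 35.8%, and 7.63% outside, below their range. On chromosome 16 coverage was thus below that of the others both inside and outside xChIP H1.2 peaks, more so inside. On chromosome 10 only the value outside these peaks was below their range. In the 159 xChIP H1.2 peaks of 20 kb or more on chromosome 16, xChIP H1.5 covered 11.5%, against 18.9 to 46.7% on the other autosomes.

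The longest xChIP H1.2 peaks lay in gene-dense stretches. On chromosome 10 a peak of 167426 bp (chr10:99042588-99210013) spanned ARHGAP19, the Wnt regulators FRAT1 and FRAT2, the ribosome biogenesis gene RRP12, the glycolytic gene PGAM1, EXOSC1 and ZDHHC16, and xChIP H1.5 covered 10.1% of it. On chromosome 16 a peak of 137915 bp (chr16:425571-563485) spanned PGAP6, NME4, DECR2 and RAB11FIP3, with 18.6% xChIP H1.5. The xxChIP lists covered 1.00 to 3.07% of these peaks, so both stretches were nearly free of xxChIP peaks.

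Values per protein-coding gene were not matched on GC content or gene density, unlike those of windows, nor on gene length. The median gene had 7.36% of its length in xChIP H1.5 peaks on chromosome 10 (742 genes) and 2.51% on chromosome 16 (861 genes), against 11.3% over the 17626 genes of the other autosomes. The median xChIP H1.2 coverage was 21.2%, 35.7% and 27.6%. An xChIP H1.5 peak touched 539 genes of chromosome 10 (72.6%) and 459 of chromosome 16 (53.3%), against 71.1% of all autosomal genes, so only chromosome 16 was below that share, and an xChIP H1.2 peak 85.7% and 85.0%, against 83.9%. Within 1000 bp of the transcription start, an xChIP H1.5 peak was found at 13.9% of genes on chromosome 10 and 11.5% on chromosome 16, against 22.1% of all. For xChIP H1.2 these shares were 43.9% and 58.4%, against 49.3%. Gene starts of chromosome 16 thus had xChIP H1.2 peaks more often, and xChIP H1.5 peaks less often, than gene starts over all autosomes, without matching.

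The gene-dense start of chromosome 16 holds the globin and tryptase clusters. The 5 genes of the alpha globin cluster encode alpha and alpha-like globins. xChIP H1.2 touched 3 of them (60.0%, against 85.0% of chromosome 16 genes) and xChIP H1.5 only HBZ, the embryonic gene (20.0%, against 53.3%). xChIP H1.2 covered 80.0% of HBZ and xChIP H1.5 12.5%. All 4 tryptase genes, which encode mast cell proteases, were touched by xChIP H1.2, with 100% of TPSB2 and 98.4% of TPSG1 covered. None of the 4 held an xChIP H1.5, xxChIP H1.2 or xxChIP H1.5 peak, where these lists touched 53.3%, 40.3% and 36.5% of all chromosome 16 genes. The tryptase genes span only 2176 to 3618 bp, and HBA1, HBA2 and HBQ1 only 721 to 843 bp. The shares touched were not matched on gene length. The genes of each cluster lie close together and share peaks, so they are not independent of each other.

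On the long arm of chromosome 16, the 11 metallothionein genes, which encode metal-binding proteins, were mostly without peaks. Over all genes of chromosome 16, xChIP H1.2 touched 85.0% and xChIP H1.5 53.3%. Of the metallothionein genes xChIP H1.2 touched 4 (36.4%), with MT1B at 100%, MT1E at 97.8% and MT1M at 88.3%. xChIP H1.5 touched only MT1A (9.09%), which it covered to 75.0%, where xChIP H1.2 was at 0. These genes span only 914 to 3885 bp, and the shares touched were not matched on gene length. Of the 3 Iroquois homeobox genes, xChIP H1.2 touched IRX3, covering 22.99% of it, and xChIP H1.5 none. The 8 cadherin genes, which encode cell adhesion proteins, all held an xChIP H1.2 peak. Of them 7 (87.5%) held one of xChIP H1.5, with a median xChIP H1.5 coverage of 4.91%. CDH3 had 66.2% and 3.05%, and the long gene CDH8, in the GC-poorest part of the arm, had 7.09% and 9.16%.

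Leukocyte genes are of interest in a myeloid line. The 4 leukocyte integrin genes of chromosome 16, which encode adhesion receptors of white blood cells, had 42.4 to 100% of their length in xChIP H1.2 peaks. ITGAL had 100% and 20.6% xChIP H1.5, ITGAM 71.8% and 14.6%, ITGAD 63.6% and 10.2%, and ITGAX 42.4% and 0. None of the 4 had an xChIP H1.5 peak at its start, while all 4 had one of xChIP H1.2, where all gene starts of chromosome 16 had 11.5% and 58.4%. Among 18 further leukocyte genes, xChIP H1.2 touched 14 (77.8%) and xChIP H1.5 6 (33.3%), against 85.0% and 53.3% of all chromosome 16 genes. SPN, the gene of a leukocyte surface sialoglycoprotein, had 100% xChIP H1.2 and 0 xChIP H1.5. The inflammasome adaptor gene PYCARD had 88.4% and 0. IRF8, the NADPH oxidase gene CYBA and the coronin gene CORO1A held no peak of any of the 4 lists. Over all genes of chromosome 16, xxChIP H1.2 touched 40.3% and xxChIP H1.5 36.5%, so genes without a peak of these lists were common. The share of all genes without a peak of any list was not counted.

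Of 14 leukocyte genes of chromosome 10, 12 (85.7%) held an xChIP H1.2 peak and 11 (78.6%) held one of xChIP H1.5, near the 85.7% and 72.6% of all genes of that chromosome. SRGN, the proteoglycan gene of secretory granules, had 71.01% xChIP H1.2 and 8.34% xChIP H1.5. The cytokine receptor gene IL15RA had 58.2% and 16.2%, and the urokinase gene PLAU 52.1% and 0. The leukotriene synthesis gene ALOX5 had the highest xChIP H1.5 coverage of the 14, 21.9%, followed by the NF-kappaB gene NFKB2 with 21.8%. At gene starts, xChIP H1.2 peaks were found at 71.4% of these genes and xChIP H1.5 peaks at 7.14%, where all genes of chromosome 10 had 43.9% and 13.9%.

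Some genes of chromosome 10 that encode cytochromes P450, which oxidize drugs and lipids in the liver, stood at the other end. xChIP H1.5 covered 34.3% of CYP2C19, 26.9% of CYP2C18 and 9.59% of CYP2C8, and xChIP H1.2 covered 62.3%, 52.7% and 31.9% of them. All of these xChIP H1.5 values were above the median of 7.36% over the genes of chromosome 10. Of 13 developmental transcription factor genes, xChIP H1.5 touched 5 (38.5%, against 72.6% of chromosome 10 genes), with the highest value, 15.2%, at PITX3, a homeobox gene of eye and midbrain. HHEX, NKX2-3, HMX2, HMX3 and LBX1, which are homeobox genes, held no peak of any list. They span only 2470 to 5693 bp, and the shares touched were not matched on gene length. How many of all genes lacked a peak of any list was not counted. Of the 5 interferon-induced IFIT genes, xChIP H1.5 touched IFIT2 (37.9%) and IFIT3 (10.6%), while xChIP H1.2 was at 0 on IFIT2. The spans used here for IFIT2 (25578 bp), IFIT3 (50167 bp), HBZ (11776 bp) and HBM (12873 bp) are those of the annotation and are long for such compact genes.

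Genes of 500 kb or more were also examined, since each spans several windows. All 21 such genes of chromosome 10 and all 7 of chromosome 16 were touched by all 4 lists, as were all 282 genes of that size on the other autosomes. Their median xChIP H1.5 coverage was 9.84% and 6.55%, against 13.4% in those 282 genes. The values ran from 4.44% in DOCK1, a regulator of the cytoskeleton, to 16.8% in the heparanase-like gene HPSE2 on chromosome 10. On chromosome 16 RBFOX1, a splicing regulator gene, had 4.77%, GSE1 4.99%, ZFHX3, a homeobox and zinc finger gene, 6.401%, and WWOX, an oxidoreductase gene, 6.64%. Their medians of xxChIP H1.2 were 19.9% and 12.4%, against 22.6%. The lower xChIP H1.5 coverage was thus also seen in very long genes.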

How the data were processed

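HL-60/S4 cells were profiled by xChIP-seq and xxChIP-seq with antibodies to H1.2 and H1.5. The authors sequenced paired ends, aligned them to hg19 with Bowtie2, kept uniquely mapped reads, called peaks in each replicate with MUSIC at default settings, and deposited 1 list of peak positions per combination, merged over 3 replicates, without scores. Depth is unknown. The chromosomes, windows, gene lists and comparisons were chosen with earlier results of these data known. Coverage was the share of known bases of a window in peaks. Matched windows came from the other 20 autosomes, with GC steps of 1 point, 6 classes of gene number (0, 1, 2, 3 to 4, 5 to 8, 9 or more) and at least 20 control windows, nearest GC steps being added otherwise (54 of 2106 windows). Peaks were assigned to windows by their centre for number and length. The reference was GRCh37, the sequence of hg19, with GENCODE v44 genes lifted to it. Genes were named by list, by a length of 500 kb or more, or as lying in the extreme segments, runs and stretches; those in the 10 windows of highest ratio, the GGAAT count the split of peaks at 20 kb in each chromosome and the ratios beside gaps without windows of high ratio were added after values were seen. Python 3.11.15, numpy 2.4.6, pandas 2.3.3 and matplotlib 3.10.9 were used, and the matching was tested on simulated windows. No test over samples was possible. Input reads, replicates and copy number were not analysed here. Some listed genes are not reported here.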

Additional observations from a re-analysis of the deposited data

How the results depend on the processing

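Window size, known sequence, matching, gene definition, peak length, chromosome ends and control chromosomes were varied for 9 results, 140 values in all, and 136 moved by less than the SD over the other 20 autosomes. The xChIP H1.5 ratio over both chromosomes stayed between 0.543 and 0.640, that of chromosome 10 between 0.623 and 0.720 and that of chromosome 16 between 0.415 and 0.504. The upper values came from matching also on xChIP H1.2 coverage. Leaving out each control chromosome in turn gave 0.543 to 0.565 over both. With peaks of 20 kb or more left out, the xChIP H1.2 ratio went from 0.763 to 0.974. The share of low windows went from 52.1% to 40.9% in windows of 500 kb, to 20.3% at or below 0.25 times the matched mean and to 1.80% with no xChIP H1.5 base; the last 2 are stricter calls by construction, and for the window size the cause was not tested. No paired analysis was possible because each list is merged over its replicates. With 1 merged list per combination, a difference between chromosomes cannot be told apart from a property of that list, and how many replicates hold a peak is unknown.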
